A study of Homo sapiens with 4 samples.

Results

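The genes described here make cholesterol and fatty acids, or control and move the sterols that result. They were chosen from a list of 34 genes, and each was read from probe sets annotated with that 1 gene symbol, with the brightest probe set standing for the gene. Of the 34 genes, 31 could be read in this way, out of 19775 genes with such a probe set. The probe sets of CYP51A1 and FADS1 carried several symbols, so these genes, like FDFT1, were not analysed here. All 31 passed the filter on dim genes that left 15082 genes.

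Total RNA of MDA-MB-231, an established human line from triple-negative breast cancer with mesenchymal features, was hybridised to 4 Affymetrix U133 Plus 2 arrays. The shRNA control carried the vector pLVTH and the shRNA knockdown carried a short hairpin RNA against ZEB2, a zinc-finger repressor of epithelial genes, both in stably transduced cells. The siRNA control received 20 nM of small interfering RNA (siRNA) against luciferase, which human cells lack, and the siRNA knockdown received a 20 nM siRNA pool against ZEB2. Transfection lasted 24 hours, and RNA was taken after another 48 hours of growth. The labels do not say whether the transduced cells are 1 clone or a pool. Each group is 1 array of 1 culture, so differences within a pair have no replicate check. Labelling started from 2 microg of RNA in the shRNA pair and from 100 ng in the siRNA pair. Method of knockdown, culture and labelling input therefore cannot be told apart wherever the pairs are compared. Values are log2 expression values, so a difference of 1 is 2-fold.

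Cells build cholesterol from acetyl-CoA through mevalonate, isoprenoids, squalene and lanosterol, and build fatty acids from acetyl-CoA through malonyl-CoA. The sterol regulatory element binding proteins (SREBPs), encoded by SREBF1 and SREBF2, switch on most of these genes when membrane sterol is low. SCAP carries them from the endoplasmic reticulum to the Golgi for activation, while INSIG1 and INSIG2 hold SCAP back when sterols are plentiful. Many of these genes therefore tend to move together in cultured cells.

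Some facts of the arrays bear on these genes. ZEB2 read 6.12 in the shRNA control against 3.52 in its knockdown, and 6.56 against 3.51 in the siRNA pair. The mesenchymal markers VIM, CD44, AXL, CAV1 and MSN read between 12.14 and 14.12 on all arrays. Of the epithelial markers, KRT8, KRT18 and KRT19 were also bright, between 10.74 and 12.43 on all arrays, and EPCAM read between 7.01 and 9.07. E-cadherin (CDH1) stayed below the filter level of 4.77 on the shRNA arrays, at 3.54 and 4.26, and read 7.37 and 8.35 on the siRNA arrays. The lymphocyte marker PTPRC, the endothelial marker CDH5 and the hepatocyte marker ALB stayed under that level on every array. CD3E (5.17 to 5.52), PECAM1 (5.72 to 6.98) and COL1A1 (7.03 to 7.63) did not. The 3 prime minus 5 prime difference of the ACTB control probe sets was -0.038 and -0.033 on the shRNA arrays and 0.50 and 0.52 on the siRNA arrays. In the shRNA pair 12 probe sets of the poly-A spikes, foreign RNA normally added before labelling, were lower in the knockdown, with differences of -0.84 to -0.54. They were also lower in the siRNA knockdown than in its control, with differences of -0.39 to -0.049. The part of these differences in the results was not tested.

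Sterol and fatty acid genes were higher in the stable knockdown than in its control and slightly lower in the transient knockdown than in its own. In the shRNA pair 27 of the 31 genes were above 0 (87.1%), against 46.6% of all genes. In the siRNA pair 29 of the 31 were below 0 (93.5%), against 53.7% of all genes. After quantile normalization 24 of the 31 were below 0 there (48.8% of all genes), and after cyclic loess 26 (51.3% of all genes). The median difference was 0.37 for the stable knockdown and -0.26 for the transient one, where the medians of all genes were -0.024 and -0.018. Both signs together, above 0 in the first pair and below 0 in the second, were seen for 26 of the 31 genes (83.9%), against 25.9% of all genes. The pairs share no array. The sizes differed, since 5 genes reached 2-fold with the hairpin and none with the siRNA pool. The gap between the pairs could not be tested with 1 array per group, and fewer cells expressing a gene and less RNA per cell cannot be told apart in bulk RNA.

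**Figure D1:**
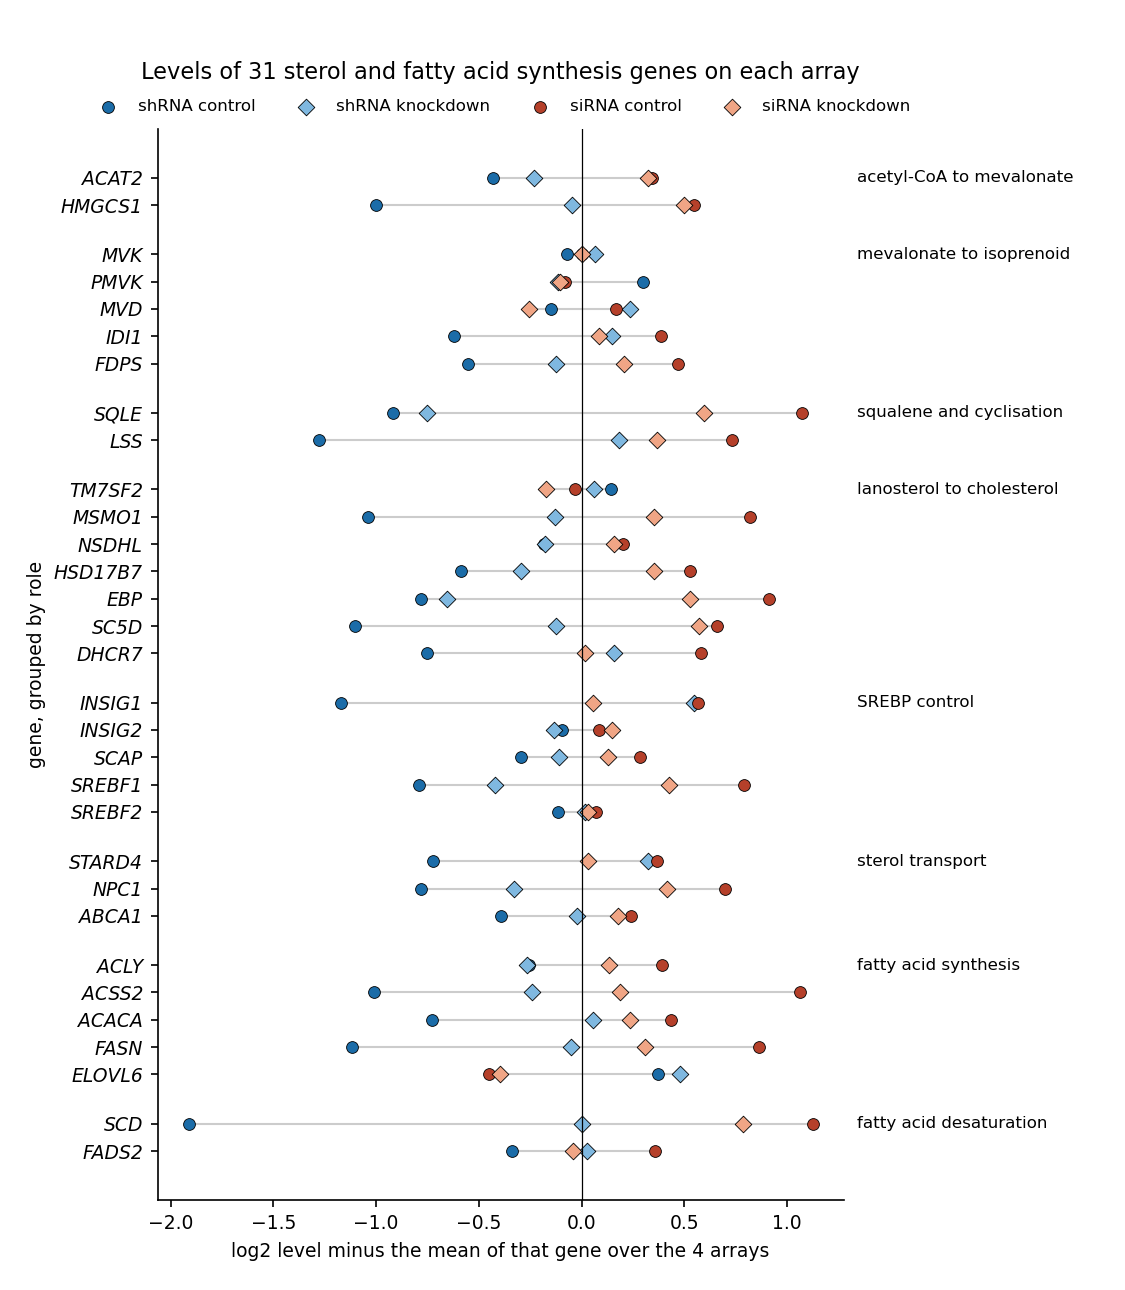
Level of each of the 31 genes on the 4 arrays, as the log2 value minus that gene's mean over the arrays; circles are controls, diamonds knockdowns, blue the shRNA pair and red the siRNA pair. The shRNA control (dark blue) is the lowest array for 25 genes and the siRNA control (dark red) the highest for 25.

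The order of the arrays was much the same from gene to gene. The shRNA control was the lowest of the 4 arrays for 25 of the 31 genes (80.6%), against 30.9% of all genes. For 25 genes (80.6%) the siRNA control was the highest, against 27.7% of all genes. The whole order, shRNA control below shRNA knockdown below siRNA knockdown below siRNA control, held for 19 genes (61.3%), against 12.0% of all genes. The array farthest from the median of the others was the shRNA control for 21 genes (67.7%), against 38.7% of all genes, and the siRNA control for 6. The shRNA knockdown was the farthest for 1 gene and the siRNA knockdown for 3. The shares of all genes for the siRNA control and the knockdown arrays were not counted.

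The first steps join acetyl-CoA units. ACAT2, the cytosolic thiolase, read 10.15 in the shRNA control and 10.35 in its knockdown, then 10.92 and 10.90 in the siRNA control and its knockdown. Its siRNA arrays lay above its shRNA arrays, while neither knockdown differed from its control by more than 0.20. HMGCS1, which makes HMG-CoA, read 6.59 and 7.54 on the shRNA arrays and 8.13 and 8.08 on the siRNA arrays. HMGCS1 was thus 1.94-fold higher in the shRNA knockdown and within 1.04-fold of its control in the siRNA pair.

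Enzymes from mevalonate to the isoprenoids were mixed. IDI1, which isomerises isopentenyl diphosphate, read 10.50, 11.27, 11.51 and 11.20 on the shRNA control, shRNA knockdown, siRNA control and siRNA knockdown, an order of arrays kept in the sentences that follow. FDPS, which makes farnesyl diphosphate, read 10.58, 11.01, 11.60 and 11.34. Both were higher in the shRNA knockdown (0.77 and 0.43) and lower in the siRNA knockdown (-0.30 and -0.26). MVD, the mevalonate diphosphate decarboxylase, had 6.19, 6.57, 6.51 and 6.08, with differences of 0.38 and -0.43 of opposite sign. The kinase gene MVK differed by 0.13 and -0.0037. The next kinase gene, PMVK, differed by -0.41 and -0.023 and was the lowest of all 31 in the shRNA pair. MVK depended on the probe set, since the next brightest ones differed by 0.72 and 0.72 in the shRNA pair.

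Squalene is oxidised by SQLE and then cyclised to lanosterol by LSS. By its brightest probe set LSS read 9.34, 10.80, 11.35 and 10.98, so that its shRNA control stood apart from the other arrays. Another probe set read 6.63, 8.31, 6.24 and 5.89, with the siRNA arrays below the shRNA control. LSS was higher by 1.46 in the shRNA knockdown, 2.75-fold, and differed by -0.36 with the siRNA pool. SQLE read 7.90, 8.07, 9.89 and 9.41, and here both shRNA arrays lay below both siRNA arrays. Its shRNA difference was 0.17, one of the smaller ones, while its siRNA difference of -0.48 was one of the larger.

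The enzymes from lanosterol to cholesterol split in the same manner. MSMO1, the C4 methyl oxidase, read 10.38, 11.29, 12.24 and 11.77. SC5D, the C5 desaturase, read 9.18, 10.16, 10.94 and 10.85, and DHCR7, the last reductase of the pathway, 8.68, 9.58, 10.01 and 9.44. These genes were higher in the shRNA knockdown by 0.91, 0.98 and 0.91, each under 2-fold. With the siRNA pool they differed by -0.47, -0.085 and -0.57. EBP, the sterol isomerase, read 10.13, 10.26, 11.82 and 11.44. Like SQLE, EBP was near its control in the shRNA pair (0.12) and separated the pairs. HSD17B7, a sterol ketone reductase read by a single cross-hybridising probe set, differed by 0.29 and -0.18. NSDHL, a decarboxylase, differed by 0.0061 and -0.045, and TM7SF2, a C14 reductase, by -0.083 and -0.14. Of the 16 sterol enzymes in all, 14 were above 0 in the shRNA pair, where 46.6% of all genes were. In the siRNA pair 16 were below 0, where 53.7% of all genes were. The medians were 0.34 and -0.22. The siRNA signs depended on the scaling. After quantile normalization HMGCS1 (0.022), MVK (0.060), PMVK (0.033) and NSDHL (0.00064) were above 0 there. After cyclic loess ACAT2 (0.0080), MVK (0.038) and PMVK (0.018) were. The other sterol enzymes stayed below 0 in each case.

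Among the controllers of SREBP, INSIG1 differed most. INSIG1, itself an SREBP target that restrains SREBP activation, read 9.85 in the shRNA control and 11.56 in its knockdown, then 11.58 and 11.07 in the siRNA control and its knockdown. Only the shRNA control was low, and the shRNA knockdown lay close to the siRNA control. INSIG1 was 3.28-fold higher in the shRNA knockdown and 1.42-fold lower in the siRNA knockdown. Its paralog INSIG2 read 9.56, 9.52, 9.74 and 9.81, and was below 0 in the first pair (-0.037) and above 0 in the second (0.066). SREBF1, which encodes SREBP-1, read 7.49, 7.86, 9.07 and 8.70, with differences of 0.37 and -0.37. SREBF2, which encodes SREBP-2, read 7.46, 7.59, 7.65 and 7.61 and differed by 0.13 and -0.039. SCAP, the escort protein, differed by 0.18 and -0.16. From the lowest to the highest array SREBF2 thus varied by 0.18 and INSIG2 by 0.28, while INSIG1 varied by 1.73.

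Sterol transport genes followed the enzymes. STARD4, a cytosolic sterol carrier, read 8.53, 9.57, 9.62 and 9.28, with 1.04 and -0.33 as its differences. NPC1, which exports cholesterol from lysosomes, read 11.08, 11.53, 12.55 and 12.27, differing by 0.45 and -0.28. ABCA1, a cholesterol efflux pump known as a target of the liver X receptors rather than of SREBPs, read 9.66, 10.04, 10.30 and 10.23. It had the same order of arrays as NPC1, with differences of 0.37 and -0.063.

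By the brightest probe sets, fatty acid genes included the member with the largest spread. SCD, the stearoyl-CoA desaturase that makes monounsaturated fatty acids, read 10.20 in the shRNA control and 12.11 in its knockdown, then 13.24 and 12.90 in the siRNA control and its knockdown. On this brightest probe set the shRNA control was far below the other arrays. SCD was 3.77-fold higher in the shRNA knockdown, the largest of the 31 differences, and 1.26-fold lower in the siRNA knockdown. On 2 of its 4 probe sets the siRNA arrays lay below the shRNA control instead. FASN, the fatty acid synthase, read 7.84, 8.91, 9.83 and 9.27, with differences of 1.07 and -0.56. ACSS2, which activates acetate to acetyl-CoA, read 7.86, 8.63, 9.94 and 9.06. ACSS2 had the lowest siRNA difference, -0.88 or 1.84-fold lower, beside 0.77 in the shRNA pair. The carboxylase gene ACACA (8.74, 9.52, 9.90 and 9.70) differed by 0.78 and -0.20, and the desaturase gene FADS2 (8.04, 8.41, 8.74 and 8.34) by 0.36 and -0.40. ACLY, which cleaves citrate to acetyl-CoA, read 11.84, 11.83, 12.48 and 12.23, with no shRNA difference to speak of (-0.0075). ELOVL6, a fatty acid elongase, went the other way: it read 10.45 and 10.56 on the shRNA arrays and 9.63 and 9.69 on the siRNA arrays.

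Counted by size, 5 of the 31 genes reached 2-fold in the shRNA knockdown, all upward, namely SCD, INSIG1, LSS, FASN and STARD4. That is 16.1%, against 2.39% of all genes. At 1.5-fold there were 12 (38.7%), against 7.55% of all genes. None was 2-fold lower, where 2.08% of all genes were. With the mean of its 2 probe sets FASN differed by 0.53, since the dimmer one, between 5.08 and 5.94 on the arrays, gave -0.0036. In the siRNA pair none of the 31 differed 2-fold, and 0.172% of all genes did. ACSS2 alone was 1.5-fold lower (3.23%), against 1.51% of all genes. The siRNA differences were thus small, and 29 of the 31 had 1 sign.

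**Figure D2:**
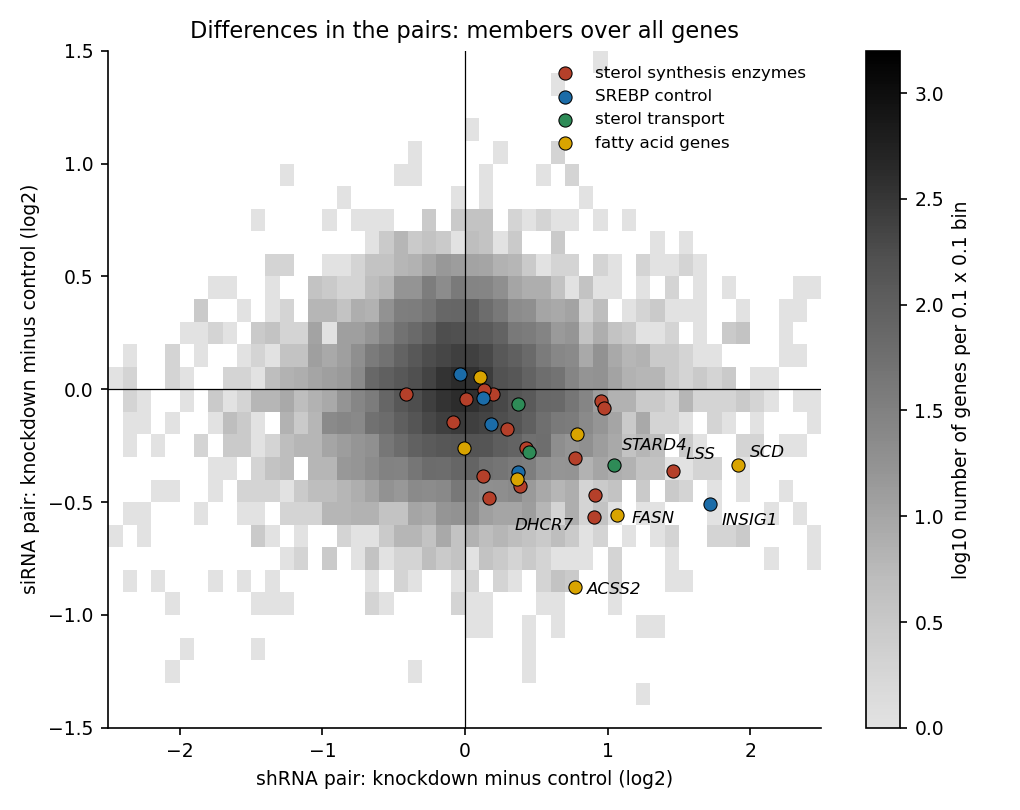
Knockdown minus control in the siRNA pair (vertical, log2) against the shRNA pair (horizontal, log2); grey squares count all genes on a log10 scale and points are the 31 members by role, with genes beyond the axes not drawn. Of the members, 26 lie at the lower right, above 0 in the shRNA pair and below 0 in the siRNA pair.

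Genes with larger shRNA differences tended to have lower siRNA differences. Across the 31 genes, which are not independent replicates, Pearson r was -0.49 and Spearman rho -0.56, and over all 15082 genes they were 0.0019 and -0.024. The points share the same 4 arrays and the scaling of the authors. HMGCS1 and SC5D did not follow, with shRNA differences of 0.96 and 0.98 beside siRNA differences of -0.051 and -0.085.

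A common effect of the knockdowns was tested with limma over the 4 arrays, with the method as a block. None of the 31 genes passed after Benjamini-Hochberg adjustment over all genes, where 0 of 15082 genes (0.0%) did, and the smallest adjusted p of limma was 0.971. At an unadjusted p under 0.05 the count was also 0 of 31, against 2.55% of all genes. HMGCS1 had the smallest unadjusted p of the members in limma, 0.211, with a mean difference of 0.45 ± 0.30 (SE). For SCD limma gave a mean difference of 0.79 ± 0.59 (SE). With 1 residual degree of freedom the error combines how far the methods differ for a gene with a spread that limma shares over genes of like intensity. A missed threshold does not show that values were equal.

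Of the 5 genes at 2-fold in the shRNA pair, SCD, INSIG1, LSS and STARD4 are shown by promoter sequence, with no entry for FASN, and SREBF2 was added after a match was found in it. A window from 250 bases before to 50 bases after the start was held in the RefSeq table (GRCh38.p14) for 28 of the 31 genes, in 39 windows. The 250 bases before the start are printed for SCD at chr10:100346983-100347232 (+ strand), INSIG1 at chr7:155297628-155297877 (+ strand), LSS at chr21:46228775-46229024 (- strand), STARD4 at chr5:111512536-111512785 (- strand) and SREBF2 at chr22:41832855-41833104 (+ strand). Capitals mark matches, on either strand, to CCAAT or its reverse ATTGG (the box bound by NF-Y, a known partner of SREBPs), to CACGTG (an E-box), to CACCTG or CAGGTG (the E-box known to bind ZEB factors) and to TCACNCCAC or GTGGNGTGA (a sterol regulatory element).
SCD: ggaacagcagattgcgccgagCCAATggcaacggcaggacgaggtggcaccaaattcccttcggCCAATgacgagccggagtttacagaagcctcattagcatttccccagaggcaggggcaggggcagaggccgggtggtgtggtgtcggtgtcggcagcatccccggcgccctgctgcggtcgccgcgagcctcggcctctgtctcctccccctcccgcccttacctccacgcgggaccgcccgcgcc
INSIG1: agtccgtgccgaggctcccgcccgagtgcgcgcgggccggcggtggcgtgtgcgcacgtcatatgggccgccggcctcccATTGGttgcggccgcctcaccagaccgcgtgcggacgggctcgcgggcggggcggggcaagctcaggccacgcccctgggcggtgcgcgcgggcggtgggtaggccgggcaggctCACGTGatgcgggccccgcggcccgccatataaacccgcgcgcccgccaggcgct
LSS: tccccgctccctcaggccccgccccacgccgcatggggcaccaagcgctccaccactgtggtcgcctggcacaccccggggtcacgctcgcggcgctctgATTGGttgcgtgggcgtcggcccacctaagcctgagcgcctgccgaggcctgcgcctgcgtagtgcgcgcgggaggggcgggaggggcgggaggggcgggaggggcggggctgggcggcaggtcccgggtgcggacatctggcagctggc
STARD4: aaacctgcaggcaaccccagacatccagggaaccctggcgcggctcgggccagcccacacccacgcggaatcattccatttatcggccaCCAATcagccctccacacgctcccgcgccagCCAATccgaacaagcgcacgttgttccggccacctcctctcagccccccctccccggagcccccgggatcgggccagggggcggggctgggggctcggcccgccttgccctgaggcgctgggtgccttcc
SREBF2: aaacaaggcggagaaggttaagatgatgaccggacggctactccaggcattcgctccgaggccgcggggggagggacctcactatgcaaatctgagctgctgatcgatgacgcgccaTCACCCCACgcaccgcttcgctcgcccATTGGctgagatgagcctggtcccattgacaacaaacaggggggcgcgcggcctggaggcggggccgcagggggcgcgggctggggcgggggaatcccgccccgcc

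In these stretches CCAAT boxes were the matches found most often. SCD had them at -229 and -186 and STARD4 at -161 and -130, counted from the start to the 5 prime end of the match. INSIG1 had an inverted box at -170 and a CACGTG at -55, and LSS an inverted box at -150. In SREBF2 a sterol regulatory element, TCACCCCAC, stood at -133 and an inverted CCAAT box at -106. No ZEB E-box lay in any of the 5 stretches printed.

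Over the 28 genes with a window, 21 had a CCAAT box (75.0%), against 42.2% of the 11984 genes past the filter that had a window. At least 2 boxes in 1 window were found for 14 (50%), against 15.4%. By window the share was 64.1% of the 39, against 34.6% of all 35116 windows. MVK and NSDHL had 5 each in 1 window, IDI1 had 5 over 2 windows, and MSMO1 had 4. In IDI1 and NSDHL a forward and an inverted match overlapped and both were counted. CACCTG was found for 7 of the 28 (25.0%), against 24.6%, which is near the background. CACGTG was found for 5 (17.9%), against 11.9%, and TCACNCCAC for SREBF2 alone (3.57%), against 1.49%. A match in letters is not a measured site, and these data hold no binding measurements.

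**Figure D3:**
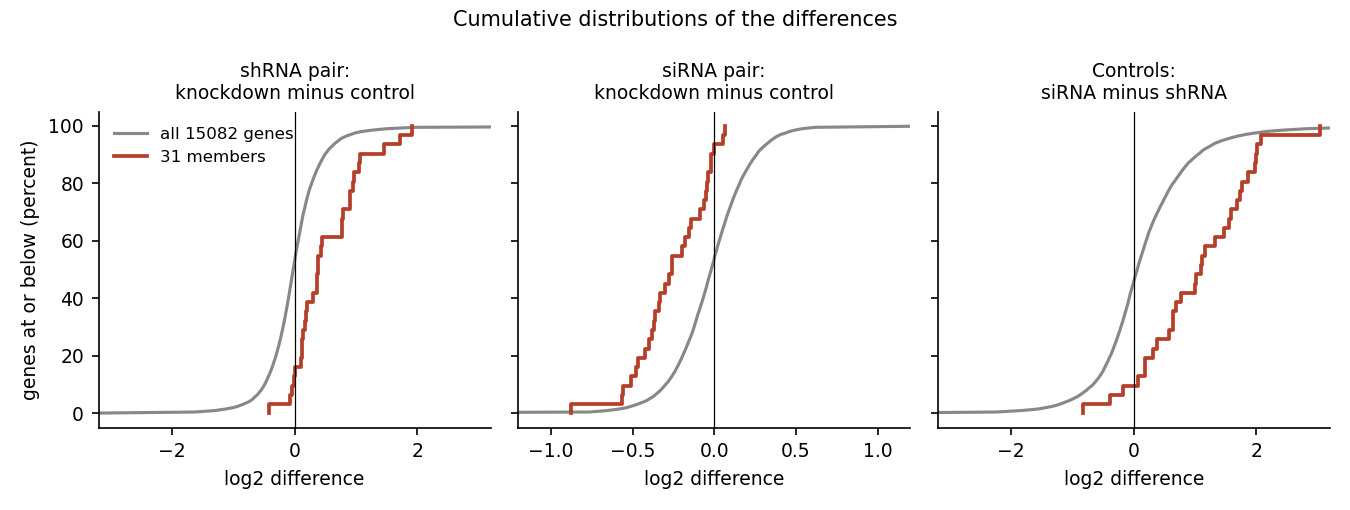
Cumulative share of genes (percent, vertical) by log2 difference (horizontal) in the shRNA pair, the siRNA pair and between the controls; grey is all 15082 genes and red the 31 members. The red curve lies to the right of the grey one in the shRNA pair and between the controls (medians 0.37 and 1.09) and to its left in the siRNA pair (median -0.26); the horizontal scale of the siRNA panel is narrower.

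The controls, both of which keep ZEB2, differed more, by the median over these genes, than either knockdown did from its control. The siRNA control was above the shRNA control for 28 of the 31 genes (90.3%), against 54.0% of all genes, with a median of 1.09 beside 0.056. At least 2-fold higher were 18 genes (58.1%), against 10.8% of all genes, and none was 2-fold lower, where 4.99% of all genes were. This comparison shares its arrays with both pairs, so it is no independent evidence about them. SCD differed most, 8.21-fold, followed by ACSS2 (4.22-fold), LSS (4.02-fold), SQLE (3.97-fold) and FASN (3.95-fold). This order holds for the brightest probe sets: with the mean of all probe sets INSIG1 came first (4.40-fold), then ACSS2 (4.22-fold), and SCD was 2.46-fold higher. By role, the median was 2.00 for SQLE and LSS, 1.33 for the 7 genes from lanosterol to cholesterol and 1.16 for fatty acid synthesis. It was 0.32 for the mevalonate to isoprenoid enzymes, where MVK, PMVK and MVD lay between -0.38 and 0.32. ELOVL6 (-0.82), PMVK (-0.38) and TM7SF2 (-0.17) were below 0. The epithelial gene CDH1 and the ACTB 3 prime to 5 prime difference moved with this comparison, by 3.83 and 0.54, and their part was not tested. Of the other epithelial markers EPCAM read 7.01 and 8.47 in the shRNA and siRNA controls, and differed by 1.39 in the shRNA pair. The keratin genes KRT8, KRT18 and KRT19 differed between the controls by 0.43, 0.25 and 0.070.

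Probe sets of 1 gene told the pairs apart in different ways. The 31 genes had 70 probe sets, 67 of them past the filter level on at least 1 array. Of the 67, 54 were above 0 in the shRNA pair (80.6%), against 48.0% of all 29214 probe sets with 1 symbol past that level. In the siRNA pair 56 were below 0 (83.6%), against 54.0% of those probe sets. All 3 INSIG1 probe sets were higher in the shRNA knockdown, by 1.71 to 1.97, and lower in the siRNA knockdown, with differences of -0.95 to -0.51. The 4 SCD probe sets differed by 1.83 to 2.10 with the hairpin and by -0.66 to -0.34 with the siRNA pool. Between the controls, however, 2 SCD probe sets gave 3.04 and 2.77 and the other two -0.49 and -0.10. LSS showed the same split, with 2.01 and 2.70 beside -0.39, although its 3 probe sets agreed within each pair (1.39 to 1.68 and -0.38 to -0.35). For SC5D the dimmer probe set gave -1.49 between the controls, where the brightest gave 1.76. Differences within a pair were thus less dependent on the probe set for SCD, LSS and INSIG1 than differences between pairs. Over the members this did not hold by sign. Of 20 genes with several probe sets past the filter level, all probe sets shared 1 sign for 12 in the shRNA pair. The count was also 12 in the siRNA pair, and it was 14 between the controls. In the siRNA pair the EBP probe sets, for example, ran from -0.43 to 0.43.

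**Figure D4:**
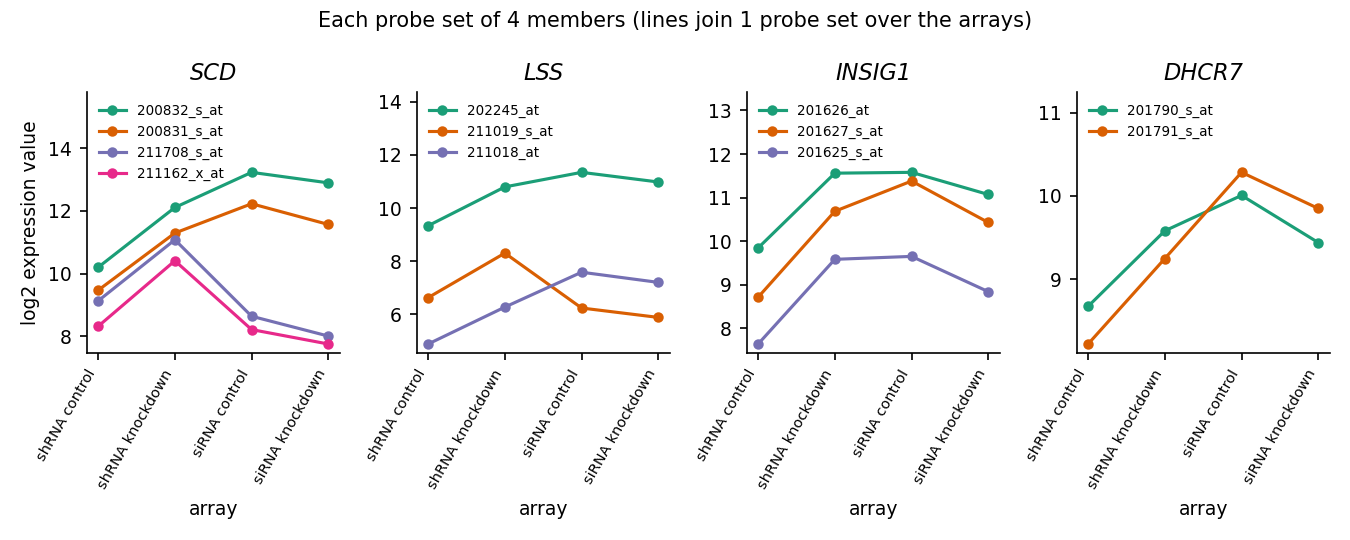
Log2 expression value (vertical) of every probe set of SCD, LSS, INSIG1 and DHCR7 on the 4 arrays (horizontal); each line joins 1 probe set, and lines of different probe sets are not comparable in height. All lines go up from shRNA control to shRNA knockdown and down from siRNA control to siRNA knockdown, while 2 SCD lines and 1 LSS line are lower on the siRNA control than on the shRNA control.

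A list of 34 related genes of sterol, SREBP and fatty acid metabolism was read in the same way, and 30 were measured. In the shRNA pair 20 of the 30 were above 0 (66.7%, beside 46.6% of all genes) with a median of 0.15. In the siRNA pair 22 were below 0 (73.3%, beside 53.7% of all genes) with a median of -0.14. At 2-fold in the shRNA pair (6.67%, beside 2.39% of all genes) were ERG28, a scaffold of the sterol demethylation enzymes, at 1.07 and NPC2, the lysosomal partner of NPC1, at 1.05. In the siRNA pair they differed by -0.26 and -0.080. LPIN1, a phosphatidate phosphatase known as an SREBP target, read 8.97, 9.91, 10.77 and 10.14, with differences of 0.94 and -0.62. Between the controls 7 were at least 2-fold higher (23.3%, beside 10.8% of all genes). They were ME1 (malic enzyme, 2.13), NPC2 (1.90), the elongase gene ELOVL7 (1.86), LPIN1, the sterol pump gene ABCG1 (1.55), ERG28 (1.35) and the dehydrogenase gene IDH1 (1.17). LBR, which has sterol C14 reductase activity, was 2-fold lower (-1.01). None of the 30 was 1.5-fold the same way in both knockdowns.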

How the data were processed

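Total RNA of 4 cultures was measured on 1 array each. The deposited values are log2 expression per probe set. RMA and affy are the tools that the submitters' processing notes name, with versions not given in the sources used here. Such scaling equalises the arrays, hides changes in total RNA and compresses dim differences. Groups follow the sample titles, and 0 columns belonged to other samples.

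Genes were named from the platform annotation (41097 probe sets with 1 symbol of 54675) and represented by the brightest probe set. Genes whose highest value reached the 40th percentile, 4.77, were kept. The members, related genes, markers and tests were chosen with earlier results of these data known. The text names all measured members, and related genes at 2-fold in any comparison or at 1.5-fold alike in both knockdowns. SCD5, MBTPS2, ACSL1 and ACSL4 met neither condition and were named after their values were seen. Counts used 2-fold and 1.5-fold. The test was limma (version 3.58.1, R 4.3.3) with an intensity trend, 2-sided, adjusted by Benjamini-Hochberg at 0.05. It was first run on simulated data in which all genes had the same spread, so genes of differing spread were not covered. In the real data the knockdown target ZEB2, with a mean difference of -2.82, had an adjusted p of 0.971 in limma. Alternatives were probe set averaging, no cross-hybridising probe sets, 3 scalings, other filters and folds, and other limma settings. Promoters came from RefSeq. Figures used matplotlib 3.10.9. The number of arrays limits the precision.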

Additional observations from a re-analysis of the deposited data

Results flagged for a closer look

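The knockdowns differed in opposite directions in the pairs: the median of the 31 genes was 0.37 for the stable knockdown and -0.26 for the transient one, and the difference between the pairs was not tested. ACSS2 was the member at 1.5-fold in opposite directions, with 0.77 for the hairpin and -0.88 for the siRNA pool, also not tested.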

How the results depend on the processing

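The medians kept their sign under all alternatives run, between 0.29 and 0.39 for the hairpin, between -0.28 and -0.16 for the siRNA pool and between 0.77 and 1.11 between the controls. The mean of all probe sets gave the values nearest to 0 of the last pair of ranges, -0.16 and 0.77, and set between the knockdown arrays instead, a choice made after seeing the data, the median was 0.28. The count of members depended on the fold. At 1.5-fold it was 12 for the hairpin, all higher, and 1 for the siRNA pool, lower, against 7.55% and 1.51% of all genes. At 3-fold it was 2 in the shRNA pair and 9 between the controls. The share of all genes at 3-fold was not counted. Over all genes the 99th percentile of the log2 difference was 1.49 in the shRNA pair, and the 96th was 1.61 between the controls. The 3 scalings moved the median of all genes by at most 0.024. Of 648 member differences recomputed, 639 kept their side of 2-fold, 8 dropped below it with the same sign, and 1 dropped below it with its sign changed. The 639 include 93 values under each of the other filters, which could not change, since a filter only chooses which genes are kept. Leaving out cross-hybridising probe sets changed only IDI1 among the members still read. In all, 14 of the 648 changed sign. Of these, 13 had been at most 0.30 in size, and 11 of the 14 were in the siRNA pair. The other one had been past 2-fold: IDI1 between the controls was -0.19 without cross-hybridising probe sets, from the dim probe set that was left. With the mean of probe sets, SC5D (0.13) and IDI1 (0.45) lost 2-fold between the controls, as did EBP (0.73), HMGCS1 (0.81) and NPC1 (0.86). limma called 0 members under each of its settings. The method block in limma, which sets each knockdown against its own control, was the only paired analysis. With 1 array per group there were no replicates to pair within a method.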

Other observations

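A few related genes were lower in both knockdowns, unlike most members, and were picked out after their values were seen. Among the members PMVK, TM7SF2 and ACLY were lower in both as well. Higher with the hairpin and lower with the siRNA pool were 17 of the 30 related genes (56.7%), against 25.9% of all genes. The share of all genes lower in both knockdowns was not counted. SCD5, a paralog of SCD, read 9.37 in the shRNA control and 8.39 in its knockdown, then 8.38 and 7.86 in the siRNA control and its knockdown. Its differences were -0.98 and -0.52, beside 1.91 and -0.34 for SCD. It was the 1 related gene of 30 with an unadjusted p under 0.05 in limma (3.33%), which is near the 2.55% of all genes. Its adjusted p in limma was 0.971. MBTPS2, the protease that makes the second cut in SREBP activation, differed by -0.95 and -0.26. ACSL1, an acyl-CoA synthetase, differed by -0.59 and -0.17, while its paralog ACSL4 differed by -0.50 and 0.68.

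Set against each other, the knockdown arrays differed less in these genes than the controls did. This comparison is fixed by the differences within the pairs and between the controls, on the same arrays, so it is no independent evidence about them. The siRNA knockdown was above the shRNA knockdown for 22 of the 31 genes (71.0%), against 57.5% of all genes, with a median of 0.28 beside 0.086 over all genes, where the controls differed by a median of 1.09. Below 0 were ELOVL6 (-0.87), MVD (-0.49), INSIG1 (-0.49), STARD4 (-0.29), TM7SF2 (-0.24), DHCR7 (-0.14), IDI1 (-0.065), FADS2 (-0.065) and MVK (-0.064). SQLE (1.34) and EBP (1.18) were still above 2-fold, and the share of all genes at 2-fold was not counted for this comparison.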
